A study of Mus musculus with 6 samples.

Results

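The genes described here are 39 integrin chains, adhesion molecules and tetraspanins, chosen by name from the 55951 genes of the deposited expression table. They comprise 13 alpha and 6 beta integrin chains, 7 tetraspanins and 13 other adhesion genes, and each symbol had a single row in the table. RNA came from cells sorted as CD8+ effector-memory T cells from the spleens of C57BL/6 mice with ovalbumin-induced asthma. The gate was CD3+ CD8+ CD4- CD44+ with a further effector-memory gate. All mice carried S100A4-EGFP, a reporter of the calcium-binding protein S100A4, and there was no group without asthma. The first group was the EGFP+ cells, called S100A4-positive (3 libraries), and the second the EGFP- cells, called S100A4-negative (3 libraries). The labels do not say whether the 3 samples of a group came from separate or pooled animals, how old the mice were, or what drives the reporter. The p-values below therefore measure the spread between these samples, which may be technical.

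Integrins are receptors made of 1 alpha and 1 beta chain, and most chains reach the cell surface only as such a pair. On leukocytes the pairs with the beta2 chain bind ICAM proteins and complement fragments, those with beta1 bind matrix proteins and VCAM-1, and those with beta7 bind adhesion proteins of mucosal vessels and epithelium. Cytoplasmic partners such as talin and kindlin-3 switch them to a high-affinity state, and tetraspanins are small membrane proteins that hold integrins and other receptors in clusters.

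S100a4 itself was read at 1.27, 4.02 and 1.52 FPKM (a read count scaled to transcript length and library size) in S100A4-positive libraries, from 9, 25 and 11 reads, against 0, 0.405 and 0.129 FPKM in S100A4-negative libraries, from 0, 3 and 1 reads. Of its exon bases, 51.7% belong to another gene on the same strand as well. Libraries held 14925260 to 17351393 recovered reads in the S100A4-positive group and 16976911 to 18660188 in the S100A4-negative group. All 10 CD8 T cell markers, among them Cd3e and Cd8a, were lower in S100A4-positive libraries, where they summed to 273 to 403 FPKM, against 1796 to 2174 FPKM in S100A4-negative libraries. All 18 tested of 19 monocyte and macrophage markers were higher, and the 19 summed to 8955 to 10373 FPKM, against 958 to 1359 FPKM. The untested marker, Vsig4, had 2 reads in S100A4-positive replicate 1 and 0 in every other library. Of 12 neutrophil markers 10 were lower and 1 higher, and the 12 summed to 522 to 1912 FPKM, against 3356 to 4969 FPKM. Of 8 plasma cell markers 7 were lower and 1 higher, and the 8 summed to 360 to 653 FPKM, against 1332 to 2793 FPKM. Of all genes tested as described below, 19.0% were higher and 43.4% lower. These marker shifts accompany every result below, and their part in it was not tested. In bulk RNA, fewer cells of a type and less RNA per cell cannot be told apart.

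Differences were tested with limma on log2(FPKM + 1) over all 13241 genes with a mean of at least 1 FPKM, and a gene was called at a Benjamini-Hochberg adjusted p under 0.05. A positive log2 fold change means a higher level in S100A4-positive cells, and the added 1 FPKM makes the differences of weakly expressed genes look smaller than they were. Of the 38 members tested, 17 rose and 11 fell, or 44.7% and 28.9%, against 19.0% and 43.4% of all genes tested. After median-of-ratios rescaling, 20 members rose and 9 fell, beside 3618 higher and 3286 lower of all 13241 genes tested. With FPKM as deposited, 2512 of all genes were higher and 5741 lower. The share of all calls that were higher was 52.4% after median-of-ratios rescaling, against 30.4% with FPKM as deposited and 42.0% after quantile normalization. In all, 73.7% of the members were called, against 62.3% of all genes. A called change of at least 1 on the log2 scale was found for 21 members (55.3%), 14 of them higher and 7 lower, against 28.8% of all genes. The groups did not overlap for 27 members (71.1%), close to the 70.0% of all genes tested. The median log2 fold change of the members was 0.15, against -0.36 for all genes, and it was 0.53 after median-of-ratios rescaling, which moved the median of all genes by 0.33. The members' median was 0.07 without S100A4-positive replicate 1, 0.25 without S100A4-positive replicate 2 and 0.28 without S100A4-negative replicate 2. The authors' deposited table calls 17 members higher and 6 lower, beside 33.7% of the genes tested here called by the authors in either direction. Of the members that fell here, Itgae, Itgb7, Icam2, Pecam1 and Cd37 were not called there.

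**Figure D1:**
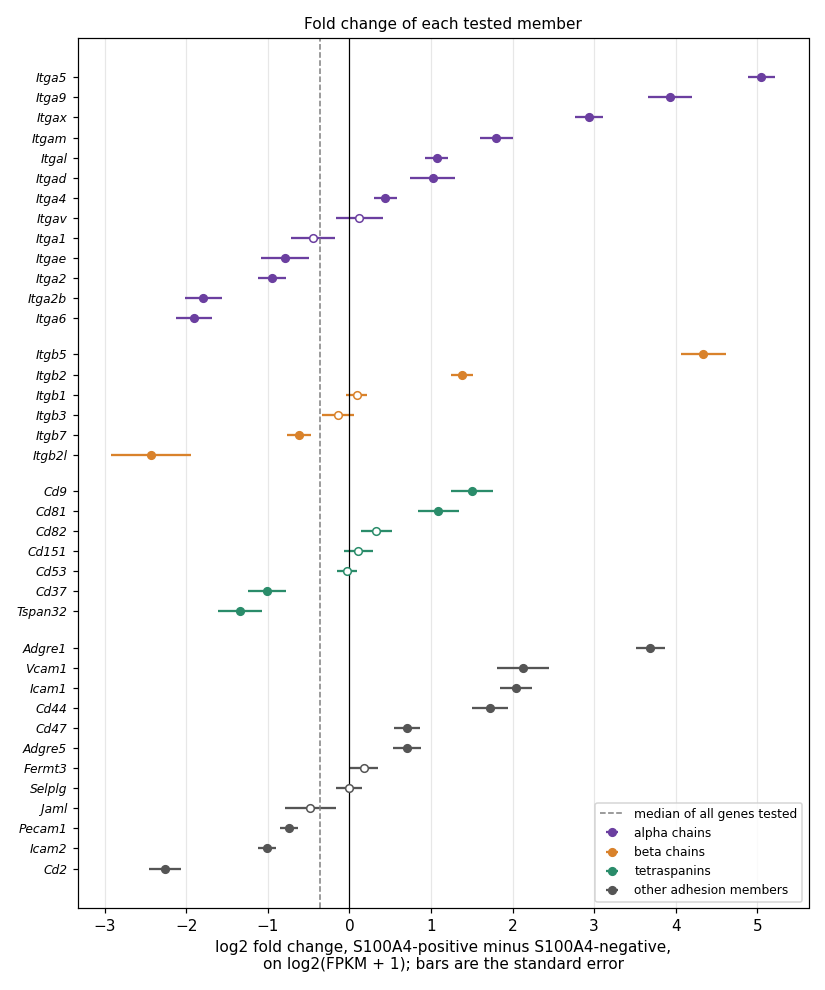
Fold changes of the 38 tested members on the log2(FPKM + 1) scale, S100A4-positive minus S100A4-negative, as points with the standard error as bars, sorted within 4 classes. Filled points were called and open points were not, and the dashed line is the median of all genes tested (-0.36). Itga5 (5.05), Itgb5 (4.34) and Itga9 (3.93) lie farthest to the right and Itgb2l (-2.43) farthest to the left.

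Promoter sequences are shown for 5 integrin genes: Itga5 and Itgb5, with the largest rises, the neighbouring genes Itgam and Itgax, which both rose, and Itga2b as one that fell. Each is the 200 bases before the start in RefSeq, build GRCm38.p6, read 5′ to 3′ on the gene's strand. By GENCODE M21 the Itga2b window lies wholly inside the gene, whose start on the - strand is at base 102470122. The end of the Itgax window reaches just past that gene's GENCODE start at base 128129547. Capitals mark GAGGAA, a core bound by the myeloid factor PU.1 and its ETS relatives, or TGTGGT, a core bound by RUNX factors, on either strand; no 2 matches overlapped.
Itgam, chr7:128062440-128062639 (+): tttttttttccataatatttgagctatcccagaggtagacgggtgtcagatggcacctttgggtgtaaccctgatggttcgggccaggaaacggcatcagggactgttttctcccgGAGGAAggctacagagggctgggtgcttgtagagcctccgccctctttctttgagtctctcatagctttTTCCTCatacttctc
Itgax, chr7:128129350-128129549 (+): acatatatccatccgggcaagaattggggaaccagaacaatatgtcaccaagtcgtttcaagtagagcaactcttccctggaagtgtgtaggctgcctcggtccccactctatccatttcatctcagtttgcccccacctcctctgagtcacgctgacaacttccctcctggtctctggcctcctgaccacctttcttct
Itga5, chr15:103366792-103366991 (-): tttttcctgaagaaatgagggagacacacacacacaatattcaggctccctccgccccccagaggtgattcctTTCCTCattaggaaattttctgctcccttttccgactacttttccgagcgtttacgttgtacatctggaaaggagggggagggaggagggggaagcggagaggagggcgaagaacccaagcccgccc
Itgb5, chr16:33829465-33829664 (+): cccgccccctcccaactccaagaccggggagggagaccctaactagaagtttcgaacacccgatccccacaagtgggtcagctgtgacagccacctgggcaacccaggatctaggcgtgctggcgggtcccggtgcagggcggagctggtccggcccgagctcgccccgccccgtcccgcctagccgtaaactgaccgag
Itga2b, chr11:102469884-102470083 (-): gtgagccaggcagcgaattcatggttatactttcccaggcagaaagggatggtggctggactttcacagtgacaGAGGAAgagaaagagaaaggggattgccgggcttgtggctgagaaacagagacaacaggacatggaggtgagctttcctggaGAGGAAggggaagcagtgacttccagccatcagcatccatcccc

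Itgam and Itga2b each hold 2 matches to GAGGAA, Itga5 holds 1, and Itgax and Itgb5 hold none of either motif in this window. A promoter was at hand for 26 of the 39 members. GAGGAA was found in 10 of these 26 (38.5%), against 19.0% of all 32851 promoters. It was in 2 of the 11 with a promoter that rose and in 4 of the 6 that fell. TGTGGT was found in 5 of the 26 (19.2%), against 11.2% of all promoters. It was in 1 of the 11 that rose and 1 of the 6 that fell. These are matches of letters and say nothing of whether a factor binds.

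The alpha chains moved in both directions and over a wide range, with 7 of 13 higher, 4 lower and 2 not called, and log2 fold changes of -1.90 to 5.05; of all genes tested, 19.0% were higher and 43.4% lower. Of the 6 beta chains, 2 rose, 2 fell and 2 were not called, over a range of -2.43 to 4.34, so 4 of 6 were called, near the 62.3% of all genes called in either direction. The median log2 fold change was 0.44 for alpha chains and -0.03 for beta chains, or 0.80 and 0.33 relative to all genes; the beta value turned positive after median-of-ratios rescaling (0.33), after quantile normalization (0.09) and without S100A4-negative replicate 2 (0.09). The alpha value was 0.82 after median-of-ratios rescaling and 1.02 with a filter of 5 FPKM. Summed over the 13 alpha chains, S100A4-positive libraries held 1562, 1453 and 1456 FPKM, against 654, 641 and 612 FPKM in S100A4-negative libraries. The beta chains summed to 1447, 1284 and 1269 FPKM in S100A4-positive libraries, against 956, 1048 and 853 FPKM in S100A4-negative libraries. Both sums were higher in every S100A4-positive library, the alpha sum by the larger factor. The alpha sum was thus 1.12 ± 0.0358 times the beta sum in S100A4-positive libraries and 0.671 ± 0.0537 times in S100A4-negative libraries (SD, n = 3 each), and the groups did not overlap.

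**Figure D2:**
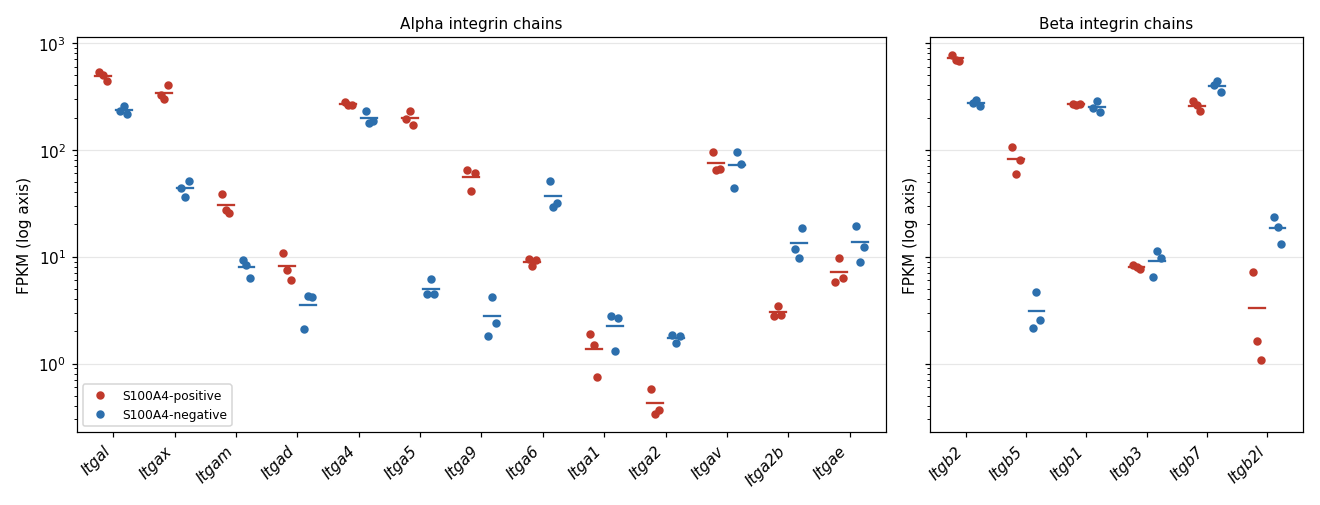
FPKM on a log axis of the 13 alpha chains (left panel) and 6 beta chains (right panel) in each library, with S100A4-positive points left of S100A4-negative ones and group means as bars. Itga5, Itga9 and Itgb5 were separated most in favour of S100A4-positive libraries, whereas Itgb1, Itgb3 and Itgav overlapped.

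The beta2 family was higher as a whole. Itgb2, the CD18 chain shared by all leukocyte beta2 integrins, was at 774, 693 and 681 FPKM in S100A4-positive libraries, against 272, 291 and 257 FPKM in S100A4-negative libraries. It was the highest integrin chain of the S100A4-positive libraries, above all values of the next chain, and rose by 1.38 (SE 0.13, limma adjusted p = 1.45e-04). Itgal, the LFA-1 alpha chain that T cells use to hold on to target cells, was at 533, 499 and 441 FPKM, against 229, 259 and 215 FPKM. Its rise of 1.07 (SE 0.14, limma adjusted p = 5.91e-04) was the smaller of the 2 large beta2 alpha chains.

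Itgax, the CD11c chain of dendritic cells and many macrophages, was at 326, 298 and 405 FPKM in S100A4-positive libraries, against 43.6, 36.2 and 51.5 FPKM in S100A4-negative libraries. The lowest S100A4-positive value lay far above the highest S100A4-negative one, and the gene rose by 2.94 (SE 0.17, limma adjusted p = 3.10e-05). Of 10 dendritic cell markers 7 rose and 0 fell, beside 19.0% of all genes tested higher and 43.4% lower. Their sum overlapped between the groups, at 348 to 881 FPKM, against 404 to 543 FPKM. Most of it came from Ccr7 (358 ± 189 and 302 ± 38.1 FPKM) and Irf8 (165 ± 29.4 and 111 ± 52.0 FPKM), neither of which was called. Itgam, the CD11b chain of monocytes and neutrophils, was at 38.4, 27.5 and 25.5 FPKM, against 9.33, 8.34 and 6.34 FPKM, a rise of 1.80 (SE 0.20, limma adjusted p = 3.27e-04). Of the exon bases of Itgam, 68.7% also belong to Gm49368 on the same strand, which was read at up to 0.065 FPKM in S100A4-positive and up to 0.101 FPKM in S100A4-negative libraries, so the level of Itgam is uncertain. Itgad, which encodes the CD11d chain of splenic macrophages, was at 10.9, 7.49 and 5.98 FPKM, against 2.09, 4.27 and 4.21 FPKM, and rose by 1.02 (SE 0.28, limma adjusted p = 0.0158). Over the 16 alternatives its value ran from 0.75 with array weights to 1.59 with voom and median-of-ratios size factors. It was called in each, at a limma adjusted p of at most 0.0407. Itgad shares 8.43% of its 50-base words with Itgax, the only such overlap among the members, so some of its reads could belong to either gene.

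Within the beta2 pairs the mix of alpha chains differed between the groups. Itgal made up 56.3% ± 5.29 of the summed FPKM of the 4 alpha partners in S100A4-positive libraries and 80.8% ± 3.28 in S100A4-negative libraries. Itgax made up 39.3% ± 5.95 and 15.2% ± 3.42 (SD, n = 3 each), and neither share overlapped between groups. The shares of Itgam, 3.48% ± 0.675 and 2.76% ± 0.499, and of Itgad, 0.926% ± 0.259 and 1.22% ± 0.422, did overlap. The alpha partners together stood at 1.22 ± 0.0597 times Itgb2 in S100A4-positive libraries and 1.06 ± 0.0150 times in S100A4-negative libraries, the narrowest difference of any pairing that did not overlap. Itgam, Itgax and Itgad lie next to each other on the + strand of chromosome 7, with gaps of 11.1 kb (Itgam to Itgax) and 3.7 kb (Itgax to Itgad), and Itgal lies 727.5 kb before Itgam (GENCODE M21, GRCm38). All 4 genes rose, by values from 1.02 to 2.94.

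**Figure D3:**
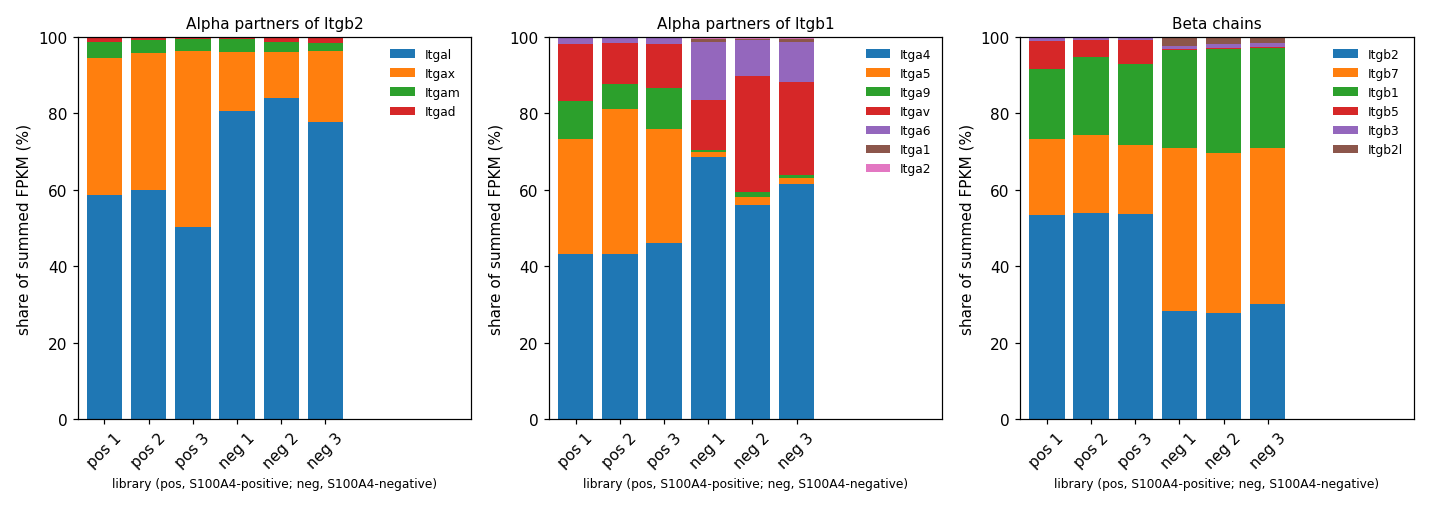
Share of summed FPKM in each library for the alpha partners of Itgb2, the alpha partners of Itgb1 and the 6 beta chains, with the 3 S100A4-positive libraries left of the 3 S100A4-negative ones. Itgax and Itga5 take a larger share of their alpha partners in S100A4-positive libraries, and Itgb2 takes 53.7% of the beta chains there, against 28.8% in S100A4-negative libraries.

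Of the beta1 pairs, some alpha chains rose and others fell, while Itga1, Itgav and the beta chain were not called. Itgb1, the widely expressed partner of matrix-binding alpha chains, was at 266, 260 and 270 FPKM in S100A4-positive libraries, against 245, 284 and 224 FPKM in S100A4-negative libraries. The groups overlapped (log2 fold change 0.09, SE 0.13, limma adjusted p = 0.573), although Itgb1 was called higher after median-of-ratios rescaling (0.46, limma adjusted p = 0.0313). Itga5, the fibronectin receptor chain, was at 194, 230 and 169 FPKM in S100A4-positive libraries, against 4.43, 6.12 and 4.45 FPKM in S100A4-negative libraries. That is a ratio of means of 39.6 and a rise of 5.05 (SE 0.17, limma adjusted p = 6.33e-06), the steepest of all members in this fit. Itga9, whose product binds VCAM-1, tenascin and osteopontin, was at 64.8, 41.1 and 61.1 FPKM, against 1.80, 4.16 and 2.38 FPKM, a ratio of means of 20.0 and a rise of 3.93 (SE 0.27, limma adjusted p = 5.02e-05).

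Other partners of beta1 went the opposite way. Itga6, a laminin receptor chain, fell by 1.90 (SE 0.22, limma adjusted p = 3.79e-04), with 9.44, 8.11 and 9.39 FPKM in S100A4-positive libraries, against 51.4, 29.0 and 31.5 FPKM in S100A4-negative libraries. Itga5 thus stood at 22.3 ± 5.43 times Itga6 in S100A4-positive libraries and at 0.146 ± 0.0625 times in S100A4-negative ones. Itga2, a collagen receptor chain read from 19 to 37 reads in S100A4-positive and 106 to 128 reads in S100A4-negative libraries, fell by 0.95 (SE 0.17, limma adjusted p = 0.00235), and by 1.84 with a pseudocount of 0.1, since it is a low gene. Its product also marks natural killer cells, whose 7 markers summed to 6.17 to 12.8 FPKM, against 31.1 to 79.1 FPKM. Of these markers 4 were tested and 3 fell, beside 43.4% of all genes tested lower. Their part in the change of Itga2 was not tested. Most of the S100A4-negative sum came from Eomes, which effector CD8 T cells also express, at 4.38, 3.26 and 7.47 FPKM in S100A4-positive libraries, against 69.0, 25.9 and 40.9 FPKM in S100A4-negative libraries. Itga1, another collagen receptor chain and a marker of tissue-resident T cells, was at 1.37 ± 0.57 and 2.25 ± 0.802 FPKM and was not called (log2 fold change -0.45, SE 0.27, limma adjusted p = 0.177).

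Itga4, which pairs with beta1 to bind VCAM-1 and with beta7 to bind a mucosal vessel protein, was at 279, 262 and 263 FPKM in S100A4-positive libraries, against 232, 177 and 187 FPKM in S100A4-negative libraries. The groups did not overlap and the gene rose by 0.44 (SE 0.14, limma adjusted p = 0.0251). It was no longer called without S100A4-positive replicate 2 or 3 or S100A4-negative replicate 2 or 3 (limma adjusted p = 0.0551, 0.0621, 0.0882 and 0.0845), and its value was 0.82 after median-of-ratios rescaling. Itga4 gave 44.2% ± 1.71 of the summed alpha partners of Itgb1 in S100A4-positive libraries and 62.1% ± 6.27 in S100A4-negative libraries, and Itga5 gave 32.5% ± 4.63 and 1.57% ± 0.332. These sums count Itga4 and Itgav in full, although their products also pair with other beta chains.

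Itgb7 was the highest integrin chain of the S100A4-negative libraries. It was at 287, 261 and 228 FPKM in S100A4-positive libraries, against 407, 438 and 346 FPKM in S100A4-negative libraries, a fall of 0.62 (SE 0.15, limma adjusted p = 0.00889). After median-of-ratios rescaling the value was -0.24 and it was not called (limma adjusted p = 0.272). Itgb2 was 2.78 ± 0.184 times Itgb7 in S100A4-positive libraries and 0.692 ± 0.0442 times in S100A4-negative libraries, so the order of these 2 beta chains was opposite in the groups. Itgae, the CD103 chain that pairs only with beta7 and binds E-cadherin, was at 5.74, 9.75 and 6.28 FPKM, against 19.5, 8.96 and 12.3 FPKM. Its groups overlapped, and its fall of 0.79 (SE 0.29) passed narrowly (limma adjusted p = 0.0490). The call was lost in 10 of 16 alternatives, with the value at -0.44 after median-of-ratios rescaling and -0.51 without S100A4-negative replicate 1 (limma adjusted p = 0.262 and 0.134; range over alternatives 0.0235 to 0.262).

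Among the alpha-v pairs a beta chain rose and the alpha chain was not called. Itgav, which pairs with beta1, beta3 and beta5 to bind vitronectin and latent TGF-beta, was at 95.4, 64.8 and 66.1 FPKM in S100A4-positive libraries, against 44.1, 96.1 and 74.3 FPKM in S100A4-negative libraries. The groups overlapped, and the difference of 0.12 (SE 0.29, limma adjusted p = 0.727) was negative without S100A4-negative replicate 1 (-0.18). Itgb5, a partner that forms a vitronectin receptor used in the uptake of dying cells, was at 105, 59.6 and 81.0 FPKM, against 2.14, 4.68 and 2.54 FPKM. It rose by 4.34 (SE 0.28, limma adjusted p = 4.23e-05), a ratio of means of 26.3. Itgb3 was at 8.0 ± 0.316 and 9.12 ± 2.40 FPKM and was not called (log2 fold change -0.14, SE 0.20, limma adjusted p = 0.548), with a positive value after median-of-ratios rescaling (0.20) and quantile normalization (0.14). The ratio of Itgb5 to Itgb3 was 10.2 ± 2.68 in S100A4-positive libraries and 0.337 ± 0.0770 in S100A4-negative libraries.

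Itga2b, the platelet fibrinogen receptor chain that pairs with beta3, was at 2.78, 3.46 and 2.82 FPKM in S100A4-positive libraries, against 11.7, 9.78 and 18.5 FPKM in S100A4-negative libraries. It fell by 1.79 (SE 0.23, limma adjusted p = 6.36e-04) without overlap. Among 12 platelet and megakaryocyte markers, 9 had a mean under 1 FPKM, and Gp1bb was at 0 in every library. Of the 3 tested, 2 were higher in S100A4-positive libraries, beside 19.0% of all genes tested. The 12 markers summed to 23.5 to 29.0 FPKM, against 4.98 to 6.81 FPKM. In S100A4-positive libraries most of this came from Vwf (20.2 ± 3.44 and 1.21 ± 0.722 FPKM). No other marker of the list exceeded 2.66 FPKM in an S100A4-positive or 1.59 FPKM in an S100A4-negative library. Selp, the P-selectin of platelets and endothelium, was read in 4, 11 and 1 reads, against 30, 11 and 20 reads, and its mean was under 1 FPKM, so it was not tested.

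Itgb2l, a paralogue of Itgb2 known from neutrophil precursors, had the largest fall among the members in this fit. It was at 7.12, 1.62 and 1.08 FPKM in S100A4-positive libraries, against 23.7, 18.8 and 13.2 FPKM in S100A4-negative libraries, a change of -2.43 (SE 0.49, limma adjusted p = 0.00435). S100A4-positive replicate 1 was the highest of its group and still below every S100A4-negative value. Without S100A4-positive replicate 2 or 3 or S100A4-negative replicate 1 the change of Itgb2l was -2.22, -2.05 and -2.25, and that of Cd2 was larger in each of these fits, at -2.25, -2.39 and -2.42. Of 12 neutrophil markers, 10 fell and 1 rose, beside 43.4% of all genes tested lower and 19.0% higher. They summed to 522 to 1912 FPKM, against 3356 to 4969 FPKM, and none was at 0 in every library. Their part in the change of Itgb2l was not tested.

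The ligands of integrins on other cells changed in opposite directions. Icam1, the inducible ligand of LFA-1, was at 174, 305 and 220 FPKM in S100A4-positive libraries, against 55.0, 55.3 and 53.4 FPKM in S100A4-negative libraries, and rose by 2.04 (SE 0.20, limma adjusted p = 1.90e-04). Vcam1, the ligand of the alpha4 integrins and a marker of splenic red pulp macrophages, was at 49.2, 38.7 and 43.0 FPKM, against 5.06, 14.5 and 10.2 FPKM, and rose by 2.13 (SE 0.32, limma adjusted p = 0.00117). Icam2, the constitutive LFA-1 ligand of lymphocytes and endothelium, fell by 1.01 (SE 0.11, limma adjusted p = 2.54e-04), at 18.1, 18.2 and 18.9 FPKM, against 39.4, 35.9 and 38.7 FPKM. Pecam1, which mediates contacts between leukocytes and endothelium, fell by 0.74 (SE 0.11, limma adjusted p = 9.24e-04), at 31.3 ± 0.358 and 53.1 ± 3.54 FPKM. After median-of-ratios rescaling both falls were smaller and still called, at -0.64 for Icam2 and -0.37 for Pecam1. The authors' deposited table called neither gene, at -0.66 for Icam2 and -0.37 for Pecam1. Of 10 endothelial markers, 3 were tested and 2 of these were higher, beside 19.0% of all genes tested. The 10 markers summed to 11.3 to 16.4 FPKM, against 4.80 to 6.62 FPKM, with Emcn at 0 in every library.

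**Figure D4:**
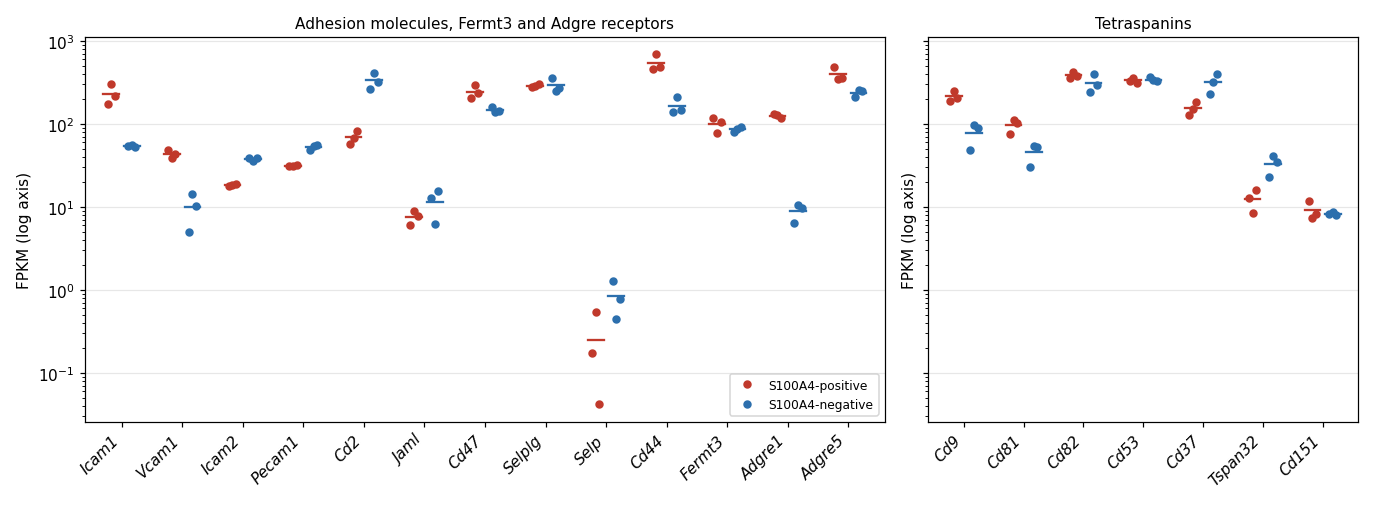
FPKM on a log axis of the 13 adhesion members other than integrins and tetraspanins (left panel) and of the 7 tetraspanins (right panel) in each library, with S100A4-positive points left of S100A4-negative ones and group means as bars. Adgre1, Icam1 and Vcam1 lie higher in all S100A4-positive libraries and Cd2 lower, while Selplg, Fermt3 and Cd53 overlap.

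Cd2, a T and natural killer cell adhesion receptor, fell most among these genes. It was at 57.7, 67.5 and 81.3 FPKM in S100A4-positive libraries, against 267, 417 and 325 FPKM in S100A4-negative libraries, a change of -2.26 (SE 0.20, limma adjusted p = 1.26e-04). Cd44, the hyaluronan receptor used in the gate, was at 462, 692 and 489 FPKM, against 139, 210 and 148 FPKM, and was higher by 1.72 (SE 0.22, limma adjusted p = 5.70e-04). Cd47, whose product restrains phagocytosis by macrophages, was at 245 ± 47.2 and 148 ± 10.9 FPKM and rose by 0.71 (SE 0.16, limma adjusted p = 0.00680). Selplg, the selectin ligand PSGL-1, was at 290 ± 12.7 and 296 ± 59.3 FPKM and was not called (log2 fold change -0.01, SE 0.16, limma adjusted p = 0.950; 0.36 after median-of-ratios rescaling). Jaml, an adhesion molecule of leukocytes at epithelium, was at 7.59 ± 1.39 and 11.5 ± 4.73 FPKM and was not called (limma adjusted p = 0.208), but it was without S100A4-negative replicate 2 (-0.83, limma adjusted p = 0.0142).

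Of the 2 adhesion G protein-coupled receptors, Adgre1, which encodes the macrophage antigen F4/80, had the larger difference. It was at 131, 127 and 118 FPKM in S100A4-positive libraries, against 6.42, 10.7 and 9.85 FPKM in S100A4-negative libraries, a rise of 3.69 (SE 0.18, limma adjusted p = 1.66e-05). Adgre5, which encodes CD97 and is made by lymphocytes and myeloid cells alike, was at 484, 349 and 357 FPKM, against 210, 257 and 251 FPKM, a rise of 0.71 (SE 0.17, limma adjusted p = 0.00815). Of the exon bases of Adgre5, 23.8% lie opposite another gene, and the counting's treatment of strand is not stated. Cd47 and Adgre5 each had a value of 1.09 after median-of-ratios rescaling.

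Of the 7 tetraspanins, 2 rose, 2 fell and 3 were not called, beside 19.0% of all genes tested higher and 43.4% lower. Cd9 was at 188, 250 and 206 FPKM in S100A4-positive libraries, against 48.6, 96.2 and 88.8 FPKM in S100A4-negative libraries, and rose by 1.5 (SE 0.26, limma adjusted p = 0.00224). Cd81, a broadly expressed tetraspanin, was at 76.5, 113 and 102 FPKM, against 30.4, 54.8 and 52.7 FPKM, and rose by 1.09 (SE 0.25, limma adjusted p = 0.00743). The groups did not overlap for either gene. Cd37, a tetraspanin of mature B cells and other leukocytes, was at 130, 151 and 183 FPKM, against 228, 322 and 399 FPKM, and fell by 1.01 (SE 0.23, limma adjusted p = 0.00679; -0.63 after median-of-ratios rescaling, still called). Tspan32, a blood cell tetraspanin also known as Tssc6, fell by 1.34 (SE 0.27, limma adjusted p = 0.00449), at 13, 8.41 and 16.0 FPKM, against 23.2, 40.6 and 35.3 FPKM.

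The remaining tetraspanins overlapped between the groups. Cd53 was at 335 ± 24.6 and 343 ± 20.4 FPKM (log2 fold change -0.03, SE 0.12, limma adjusted p = 0.825; 0.34 after median-of-ratios rescaling). Cd82 was at 387 ± 34.6 and 312 ± 78.9 FPKM and Cd151, a partner of laminin-binding integrins, at 9.17 ± 2.40 and 8.27 ± 0.342 FPKM. Cd82 was not called (log2 fold change 0.33, limma adjusted p = 0.167), but it was called higher after median-of-ratios rescaling (0.71, limma adjusted p = 0.0275) and without S100A4-negative replicate 2 (0.52, limma adjusted p = 0.0346). Summed over all 7 members, tetraspanin levels overlapped, at 1107 to 1318 FPKM in S100A4-positive and 949 to 1258 FPKM in S100A4-negative libraries. Markers of B cells, which use Cd37 and Cd81, summed to 325 to 536 FPKM, against 599 to 1753 FPKM. Of these 10 markers 8 were lower, beside 43.4% of all genes tested, and none was at 0 in every library.

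Fermt3, which encodes kindlin-3, the activator of leukocyte integrins, was at 117, 77.2 and 106 FPKM in S100A4-positive libraries, against 81.2, 87.9 and 91.2 FPKM in S100A4-negative libraries. The groups overlapped and it was not called (log2 fold change 0.18, SE 0.17, limma adjusted p = 0.362), although it was after median-of-ratios rescaling (0.56, limma adjusted p = 0.0151) and without S100A4-positive replicate 2 (0.36, limma adjusted p = 0.0481). Among 32 other integrin activation and adaptor genes, 26 were tested, of which 13 rose and 5 fell, with a median log2 fold change of 0.37, against -0.36 over all genes, of which 19.0% were higher and 43.4% lower. After median-of-ratios rescaling 17 rose and 3 fell, beside 3618 higher and 3286 lower of all 13241 genes tested. Over all alternatives 10 to 18 rose and 3 to 5 fell. Parvb, a parvin that links integrins to actin, rose by 2.71 (SE 0.29, limma adjusted p = 2.86e-04), Skap2, an adaptor of myeloid and B cells, by 2.42 and Dok1 by 1.36. Skap1, the T cell counterpart of Skap2, fell by 2.63 (SE 0.19, limma adjusted p = 6.64e-05), at 11.9 ± 3.51 and 76.9 ± 6.65 FPKM, while Skap2 was at 92.9 ± 3.34 and 17.1 ± 4.93 FPKM. Dok2 and the Rap1 activator Rasgrp2 fell by 1.18 and 0.99.

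Other genes of the same families were also counted, beside 19.0% of all genes tested higher and 43.4% lower. Of 8 integrin chains outside the 39 genes, 3 were tested and 1 fell, the laminin receptor chain Itga7 (log2 fold change -1.26), and all 8 summed to at most 6.42 FPKM in S100A4-positive and 13.9 FPKM in S100A4-negative libraries. Of 19 other tetraspanins, 12 were tested, 6 rose and 0 fell by limma, while 2 were lower at an unadjusted p under 0.05 and 2 fell without S100A4-positive replicate 1; Cd63, a tetraspanin of lysosomes, rose by 3.22, Tspan33 by 2.87 and Tspan4 by 1.74. The median of those 12 was 0.58, against 0.11 for the 7 member tetraspanins and -0.36 for all genes. Of 31 other adhesion genes, 20 were tested, 11 rose and 7 fell. After median-of-ratios rescaling or quantile normalization 4 of the list fell, beside 3286 and 4183 lower of all 13241 genes tested. In this list Adgre4, Cd300a and F11r, a junctional adhesion molecule, rose by 6.09, 4.01 and 3.20, and the T cell genes Cd6, Cd226 and Cd96 had log2 fold changes of -2.63, -2.48 and -2.40.

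Of 20 listed matrix ligands of the integrins, 9 were tested, 6 rose and 1 fell, beside 19.0% of all genes tested higher and 43.4% lower. With a filter of 5 FPKM, 4 rose, and 2 fell in some alternatives. Fn1, fibronectin, the ligand of the Itga5 product, was at 216, 134 and 56.5 FPKM in S100A4-positive libraries, against 3.50, 1.25 and 0.918 FPKM in S100A4-negative libraries, and rose by 5.47 (SE 0.51, limma adjusted p = 1.63e-04). Spp1, osteopontin, a ligand of alpha9 and alpha-v integrins, and Thbs1, thrombospondin, a ligand of the Cd47 product, rose by 2.14 and 2.07. Lamc1, a laminin chain, had a log2 fold change of -0.96, in the same direction as the laminin receptor chain Itga6.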

How the data were processed

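The authors deposited FPKM for 55951 genes in 6 libraries, and a comparison table with, per the file headers, group means of a normalized read count (a signal), a log2 fold change, a p-value and an adjusted p-value. Per the submitters' processing notes, HISAT2 2.1.0, Cufflinks and Cuffnorm were used with mm10, with no role given; the annotation, the counter and its use of strand are not given in the sources used here. Reads per gene were recovered from FPKM and the authors' group means, and all 135018 values above 0 lay within 0.02 of a whole read.

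Genes with a mean of at least 1 FPKM (13241; 42710 left out) were tested on log2(FPKM + 1) with limma 3.58.1 in R 4.3.3; the prior variance followed the mean level and p-values were adjusted by Benjamini-Hochberg. Other pseudocounts, filters, scalings and fits, and fits without each library in turn, are in the closing section. Replicates within a group correlated at 0.967 to 0.984 and libraries of different groups at 0.795 to 0.849. No set test was run and no p was computed over the members. The members and lists were chosen with earlier results of these data known. All members are named, and from each pathway list up to 3 called genes per direction with the largest change. Genes, positions and overlaps are from GENCODE M21 (GRCm38) and promoters from RefSeq (GRCm38.p6). Python 3.11.15, numpy 2.4.6, pandas 2.3.3 and matplotlib 3.10.9 were used. Markers of eosinophils (1 higher and 2 lower of 4), plasma cells (1 higher and 7 lower of 8) and red cells (0 called of 6) were also counted. Beside these stand 19.0% of all genes tested higher and 43.4% lower. Of 8 stromal markers 0 were tested.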

Additional observations from a re-analysis of the deposited data

How the results depend on the processing

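Of the 38 members tested, 26 kept their direction and their call in all of the 16 alternatives that tested them; Itga1 and Itga2 lay below the filter of 5 and had 15. With FPKM as deposited 5741 genes fell, against 3286 after median-of-ratios rescaling and 3222 with voom on recovered reads and median-of-ratios size factors, and the share of calls that were higher was 30.4%, 52.4% and 53.2%, or 42.0% after quantile normalization. Under the same pair of settings the median log2 fold change was 0.53 and 0.54 for the members, 0.82 and 0.82 for alpha chains (1.02 with a filter of 5) and 0.33 and 0.34 for beta chains, and 1 beta chain in place of 2 was called lower, since Itgb7 lost its call. The cause was not tested. Differences that changed sign were small. In these 2 settings Itgb3 was at 0.20 and 0.22, Selplg at 0.36 and 0.37 and Cd53 at 0.34 and 0.35; Itgb3 was at 0.14 after quantile normalization, and array weights gave -0.06 for Itgav and 0.07 for Selplg. Leaving out 1 library gave ranges of -0.18 to 0.37 for Itgav, -0.34 to 0.01 for Itgb3, -0.12 to 0.14 for Selplg, -0.09 to 0.01 for Cd53 and -0.07 to 0.24 for Cd151. With the replicate number as a block, 17 members rose and 10 fell, since Itgae lost its call. Of all 13241 genes tested, 2669 were higher and 6188 lower in that fit. Deviations from the group mean correlated at 0.376, 0.083 and 0.366 between same-numbered libraries 1, 2 and 3. S100A4-positive replicate 2 correlated best with S100A4-negative replicate 3 (0.146), and the labels give the numbers no meaning. Members at few reads, such as Itga2, Itga2b and Selp, are limited by depth.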

Other observations

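Ilk, which encodes a kinase-like adaptor of integrins found in most cells, was listed at 0.110, 0.0624 and 0 FPKM in S100A4-positive libraries, against 0.0548, 0 and 0.0499 FPKM in S100A4-negative libraries, from at most 2 reads in any library. Of its exon bases, 89.7% lie opposite Rrp8 or Taf10, so how much of this gene was transcribed is uncertain.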
